A study of Mus musculus with 16 samples.

Results

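The genes Sox2, Sox21, Prox1, Gata3, Eya1, Eya4, Pax2, Isl1 and Lmo4, transcription factors and cofactors known from the prosensory domain and the supporting cells (SCs) of the cochlea, were taken by gene symbol. They are 9 of the 47729 genes with values. RNA was measured in 16 libraries from cochleae of mice at P4, with 4 libraries in each of 4 groups. Control mice were GLAST CreERT/+; Rpl22 HA/+, and DTR mice were Lgr5 DTR-EGFP/+; GLAST CreERT/+; Rpl22 HA/+, so both carried the RiboTag allele Rpl22-HA, an HA-tagged ribosomal protein made after Cre recombination. GLAST-CreERT is driven by the Slc1a3 locus and is tamoxifen-dependent, and it labels the greater epithelial ridge (GER) and the inner phalangeal cells, which border the inner hair cells (HCs). The DTR-EGFP allele puts the diphtheria toxin (DT) receptor in Lgr5+ SCs, which die after DT. According to the study's methods, mice of both genotypes received DT and tamoxifen, whereas the deposited labels describe the control as not treated. The study's methods state that Reissner's membrane, the lateral wall and the spiral ganglia were dissected away before the tissue was frozen. Each homogenate of the remaining cochlear tissue gave an input library, from RNA of all its cells, and an IP library, from RNA bound to HA-tagged ribosomes. Each replicate was a pool of cochleae, and the input and IP of a replicate number came from the same homogenate.

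In the developing inner ear, Eya1, Gata3 and Pax2 act in the otic vesicle, and Sox2 is needed for the prosensory domain from which HCs and SCs arise. Later, Sox2 and Sox21 are found in SCs, Prox1 in pillar and Deiters cells and in spiral ganglion neurons, and Isl1, Gata3, Eya4 and Lmo4 in several sensory and nonsensory cell types. Sox2 and Sox21 encode HMG-box proteins of the SoxB family, Gata3 a zinc finger protein, Isl1 a LIM homeodomain protein, Lmo4 a LIM-only adaptor without a DNA-binding domain, Eya1 and Eya4 coactivators that act with DNA-binding partners, Prox1 a homeodomain protein, and Pax2 a paired box protein.

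In DTR cochleae, 5 of the 8 testable members fell in the IP (Sox2, Sox21, Gata3, Eya4 and Isl1) and 5 fell in the input (Sox2, Prox1, Gata3, Eya4 and Isl1), and none rose. Sox2 had the largest fall of the members called in the IP, to a mean of 34.9 CPM (reads per 1000000 counted on genes) from 89.9 CPM, and Prox1 had the largest fall in the input, to 7.49 CPM from 31.4 CPM. Eya1 and Lmo4 passed no test in either. Isl1 was the member most enriched in the IP, at 998 CPM against 274 CPM in the input of control cochleae, and Eya4 was depleted from the IP in both genotypes. Pax2 was at or below 1.17 CPM in every library and was not tested. In bulk RNA, fewer cells of a type and less RNA per cell cannot be told apart.

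**Figure D1:**
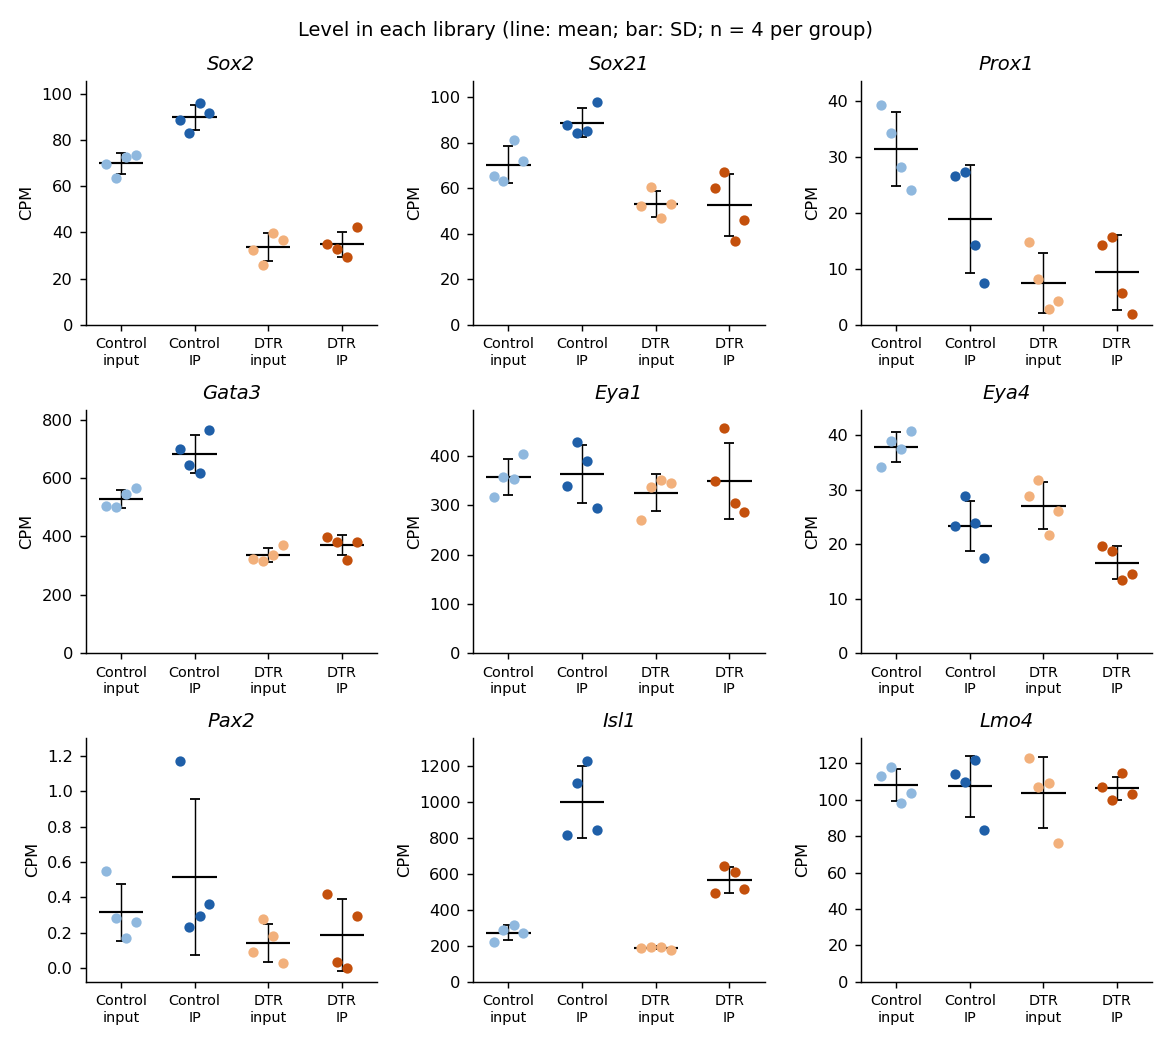
CPM of each of the 9 genes (y axes, linear) in the 4 libraries of each group, inputs and IPs of control and then of DTR cochleae; points are libraries, lines are means and bars are SDs (n = 4). For Sox2 and Gata3 all DTR points lie below all control points of the same sample type, for Isl1 the IP points lie far above the input points, and for Eya1 and Lmo4 the 4 groups overlap.

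A gene was called where the limma test on log2 quantile normalised CPM gave a Benjamini-Hochberg adjusted p under 0.05 over the 16994 tested genes. In the IP, 7.30% of all tested genes were called lower in DTR than in control, and in the input 5.21%, beside 5 of 8 members in each. The members were chosen with earlier results of these data known, so the shares are given as a description only. By ranges, 4 of 8 members in the IP had every DTR library below every control library, where 6.54% of all tested genes did, and 6 of 8 in the input, where 7.73% did. The median log2 fold change (LFC) of the 8 members was -0.75 in the IP and -0.50 in the input, and that of all tested genes was -0.004 and -0.021. The stricter criteria of the study were applied here to the limma results, whereas the study used DESeq2. They were an adjusted p under 0.05, |LFC| of at least 1 and a separation over 1.5. Separation is the ratio of the lowest value of the higher group to the highest value of the lower group. Normalised CPM under a floor of 1.08 were raised to it for this ratio. By these criteria Sox2 alone was called in the IP, where 1.34% of tested genes were called lower. Sox2 and Prox1 were called in the input, where 1.00% were.

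For the IP against the input, 4 of 8 members were called in control cochleae (Sox2, Gata3 and Isl1 higher in the IP, Eya4 lower) and 2 in DTR cochleae (Isl1 higher, Eya4 lower). The background was high, since 39.9% of all tested genes were called in control cochleae and 39.2% in DTR cochleae, so 4 of 8 and 2 of 8 members are not far from the shares of all genes. These counts do not pair the input and IP of a pool. Blocked by pool, 6 of 8 were called in control cochleae, where 48.8% of all genes were. That added Sox21, higher (adjusted p = 0.019), and Prox1, lower (adjusted p = 0.011). In DTR cochleae 2 of 8 were called with that block, where 48.2% of all genes were. No member met the study's criteria for enrichment (LFC of at least 2 with the same separation and a level above the median), which 0.535% of tested genes met in control and 0.506% in DTR cochleae. The difference of the damage response between IP and input, tested as an interaction, was called for no member. In limma 0 of 8 had an unadjusted p under 0.05, and 0 of 8 were called with edgeR and with DESeq2. These fits leave out that the input and IP of a pool share a homogenate. With the pool as a block in limma, no member was called, and the unadjusted p was 0.0095 for Prox1 and 0.019 for Sox21. The interaction was called for 0.0118% of all tested genes, and for 0.235% with the block. Whether a member responded differently in the IP and in the input was thus not resolved. The comparisons share libraries, since every library enters both an IP against input contrast and a damage contrast.

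**Figure D2:**
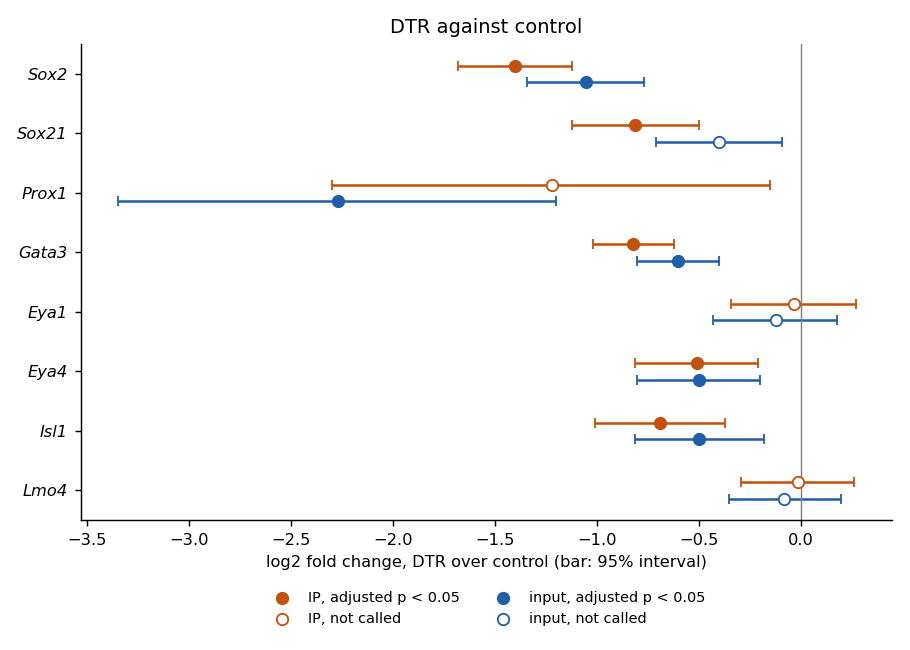
LFC of DTR over control (x axis, log2) for the 8 tested members in the IP and in the input, with 95% intervals; filled points have an adjusted p under 0.05. Filled points run from -2.27 (Prox1, input) to -0.50 (Eya4 and Isl1, input), and the intervals of Eya1 and Lmo4 span 0.

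Depth was between 28089836 and 41966310 counted reads per library. The targeted locus was checked first: mean Lgr5 fell with damage from 36.6 to 9.38 CPM in the IP (LFC -1.93). In the input it fell from 63.3 to 15.9 CPM (LFC -2.00). DTR mice are heterozygous for the DTR-EGFP allele, which sits in the Lgr5 gene. The parts of cell loss and of the replaced allele in the fall of Lgr5 were not tested. The Cre driver gene Slc1a3 was not higher in the IP than in the input of control cochleae (236 against 281 CPM, LFC -0.20, adjusted p = 0.10). Of the 6 GER and inner phalangeal cell markers, 1 was higher in the control IP than in the control input (Fabp7, LFC 0.62) and 3 were lower (among them Otoa, LFC -1.38, and Tecta, LFC -0.65). Of 10 HC markers 8 were lower there and 1 was higher (Atoh1, LFC 0.86), and 5 of 5 Schwann cell and 5 of 5 macrophage markers were lower. Also lower there were 3 of 5 mesenchyme, 2 of 6 neuron and 4 of 4 tested stria vascularis markers, and 0 of these lists were higher. Of the 6 pillar and Deiters cell markers, 2 were higher in the control IP than in the control input (Hey2, LFC 0.83, and S100a1, LFC 0.49). There 3 were lower (Ngfr, LFC -1.07, Fgfr3, LFC -0.58, and Lgr6, LFC -0.49). With damage, all 6 fell in both sample types. Their summed CPM was 833 to 1074 in control IPs and 754 to 910 in control inputs. In DTR cochleae it was 336 to 470 in the IPs and 386 to 431 in the inputs. S100a1 made up most of this sum, with means of 635 CPM in control IPs and 477 CPM in control inputs. The 6 GER and inner phalangeal cell markers summed to 7176 to 8045 CPM in control IPs and 6356 to 7886 CPM in DTR IPs. With damage 2 of 6 were lower in the IP (Fabp7, LFC -1.43, and Tecta, LFC -0.88) and 0 were higher. Epyc and Tecta made up most of the sum, with means of 3112 and 2952 CPM in control IPs and 4140 and 1563 CPM in DTR IPs. In the input the markers summed to 7020 to 10990 CPM in control and 6762 to 8721 CPM in DTR cochleae. There 1 was lower (Tecta, LFC -1.10) and 2 were higher (Epyc, LFC 0.49, and Otoa, LFC 0.46). Also with damage, 3 of 5 macrophage markers rose in each sample type, 3 of 5 mesenchyme markers rose in the IP and 0 in the input, 2 of 4 tested stria vascularis markers fell in each, and of 10 HC markers 3 rose and 1 fell in the IP and 1 fell in the input. No marker of these lists was at 0 in all 4 libraries of a group, and the part of cell composition in the changes of the members was not tested. The lateral wall and the spiral ganglia were to be removed at dissection. How much stria vascularis or ganglion tissue remained in each pool was not measured.

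Sox2, Gata3 and Isl1 were called lower in DTR in both sample types and higher in the control IP than in the control input. Their upstream sequences are shown because they are the members with this set of calls. RefSeq (GRCm38.p6) held promoter entries for 8 of the members; Eya1 had none. The 250 bases before the RefSeq start are given 5′ to 3′ on the strand of the gene, with capitals for motifs found on either strand, searched as the letters ACAAAG for the first form of the Sox core, the letters AACAAT for its other form, the letters AGATAA for zinc finger proteins of the Gata3 kind, the letters CCAAT for the box of that name and the letters TATAAA for the box bound at many promoters. No motif overlapped another in these sequences.

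Sox2 (chr3:34649745-34649994, + strand): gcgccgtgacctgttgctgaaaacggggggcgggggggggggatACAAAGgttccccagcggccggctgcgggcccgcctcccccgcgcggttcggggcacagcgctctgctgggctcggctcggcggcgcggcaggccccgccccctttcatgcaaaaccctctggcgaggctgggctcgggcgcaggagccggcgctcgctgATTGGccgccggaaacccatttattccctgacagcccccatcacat
Gata3 (chr2:9878601-9878850, - strand): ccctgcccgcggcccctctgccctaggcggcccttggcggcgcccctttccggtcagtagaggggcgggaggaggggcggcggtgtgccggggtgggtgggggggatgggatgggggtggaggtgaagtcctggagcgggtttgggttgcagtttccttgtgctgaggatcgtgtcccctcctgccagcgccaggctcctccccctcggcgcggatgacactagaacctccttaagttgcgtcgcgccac
Isl1 (chr13:116309689-116309938, - strand): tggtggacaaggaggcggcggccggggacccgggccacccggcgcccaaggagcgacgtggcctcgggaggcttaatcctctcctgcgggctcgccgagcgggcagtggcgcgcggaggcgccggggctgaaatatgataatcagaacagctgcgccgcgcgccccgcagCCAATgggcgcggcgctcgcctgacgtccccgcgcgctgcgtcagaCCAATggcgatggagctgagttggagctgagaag

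The Sox2 sequence held 1 Sox core and 1 CCAAT motif, that of Isl1 held 2 CCAAT motifs, and that of Gata3 held none of the motifs. Of all 32851 promoter entries of this length, 24.0% held a Sox core, 9.99% the GATA motif, 33.8% the CCAAT box and 12.4% the TATAAA box, so these matches are common and only describe the letters. GC content was 72.0% for Sox2, 70.0% for Gata3 and 71.2% for Isl1, against a median of 52.4% over all entries, and at least 90.8% of the entries had a lower GC content than each of them. The Sox2 start of RefSeq lies upstream of the gene start in GENCODE M21, at 34650405, and that of Gata3 lies inside the gene as annotated there, whose start is at 9890034.

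Sox2 (ENSMUSG00000074637; GRCm38 chromosome 3, 34650405 to 34652461, + strand, 1 exon) marks SCs and prosensory cells. In replicate order, it measured 69.6, 63.8, 72.6 and 73.6 CPM in control input and 88.7, 83.1, 96.1 and 91.7 CPM in control IP. In DTR cochleae it measured 32.3, 25.9, 39.6 and 36.7 CPM in the input and 35.1, 33.0, 29.4 and 42.2 CPM in the IP. Every DTR library was below every control library of its sample type, and the control IP lay above the control input without overlap. With damage, the LFC was -1.40 ± 0.14 (SE) in the IP (adjusted p = 6.1e-07) and -1.05 ± 0.14 in the input (adjusted p = 1.9e-05). Sox2 was slightly enriched in the control IP (LFC 0.37 ± 0.14, adjusted p = 0.038). In DTR cochleae it was not (LFC 0.02, 95% interval -0.26 to 0.30), and the difference between these responses had an LFC of -0.35 (95% interval -0.75 to 0.05, adjusted p = 1). The enrichment in the control IP was lost when control input replicate 1, 2 or 4 or control IP replicate 1, 3 or 4 was left out (LFC 0.32 to 0.39, adjusted p 0.053 to 0.10). Sox2 is also made by Schwann cells, whose 5 markers summed to between 1959 and 3673 CPM in control input and between 997 and 1630 CPM in DTR input (3 of 5 lower), and to between 494 and 948 CPM and between 394 and 583 CPM in the IPs (1 of 5 lower); their part in the fall of Sox2 was not tested.

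Sox21 (ENSMUSG00000061517; chromosome 14, 118233232 to 118237030, - strand, 1 exon), the other SoxB gene, measured 65.3, 63.2, 81.3 and 71.9 CPM in control input and 88.0, 84.2, 85.2 and 98.0 CPM in control IP. The DTR libraries held 52.0, 60.6, 46.8 and 53.2 CPM in the input and 60.3, 67.1, 37.0 and 46.2 CPM in the IP. DTR lay below control in both sample types without overlap, though in the input the highest DTR library (60.6 CPM) came close to the lowest control library (63.2 CPM). The fall was called in the IP (LFC -0.81 ± 0.15, adjusted p = 0.00075) and not in the input (LFC -0.40 ± 0.15, adjusted p = 0.092), where it was called with the input libraries fitted alone (adjusted p = 0.031). For the control IP against input, the LFC was 0.34 (adjusted p = 0.077), and Sox21 was called there with replicates as a block (adjusted p = 0.019) or without control input replicate 3 (LFC 0.42, adjusted p = 0.048). The lincRNA Gm4675 lies opposite Sox21 and shares 713 exon bases with it, 18.8% of the Sox21 exon length. The libraries do not mark strand, so reads in the shared bases cannot be assigned to one of the genes; Gm4675 itself was at 1.22 to 3.64 CPM over the 16 libraries.

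Gata3 (ENSMUSG00000015619; chromosome 2, 9857078 to 9890034, - strand, 10 merged exons), a zinc finger factor of the otic vesicle, the sensory epithelium and spiral ganglion neurons, had the smallest SEs of the 8 tested members (0.0951 in each contrast below). It measured 504, 500, 545 and 566 CPM in control input and 700, 646, 616 and 765 CPM in control IP. After damage it measured 323, 315, 337 and 371 CPM in the input and 399, 380, 320 and 381 CPM in the IP. Control and DTR did not overlap in either sample type. The LFC with damage was -0.82 in the IP (adjusted p = 6.1e-06) and -0.60 in the input (adjusted p = 0.00021). Gata3 was enriched in the control IP (LFC 0.45, adjusted p = 0.00089), and in the DTR IP the LFC was 0.24 (95% interval 0.04 to 0.44, adjusted p = 0.057). The latter was called without DTR input replicate 4 (LFC 0.30, adjusted p = 0.023) or DTR IP replicate 3 (LFC 0.31, adjusted p = 0.015). Of the genes that overlap Gata3, 9230102O04Rik on the same strand shares 77 exon bases and Gm13256 on the opposite strand 155, and neither exceeded 3.80 CPM in any library.

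Isl1 (ENSMUSG00000042258; chromosome 13, 116298281 to 116309689, - strand, 7 merged exons), a LIM homeodomain factor of prosensory cells, neurons and other cell types, measured 221, 289, 315 and 270 CPM in control input and 816, 1106, 1227 and 843 CPM in control IP. In DTR cochleae it measured 189, 196, 195 and 176 CPM in the input and 491, 646, 610 and 518 CPM in the IP. Each IP was above its own input, by 3.12- to 3.89-fold in the 4 control pools and 2.59- to 3.30-fold in the 4 DTR pools. The LFC of IP over input was 1.91 ± 0.15 in control (adjusted p = 1.9e-08) and 1.72 ± 0.15 in DTR cochleae (adjusted p = 8.6e-08). With damage, Isl1 fell by 0.69 ± 0.15 on the log2 scale in the IP (adjusted p = 0.0035) and by 0.50 ± 0.15 in the input (adjusted p = 0.037), with no overlap between control and DTR in either. The call in the input was lost when control input replicate 2, 3 or 4 or any DTR input replicate was left out (LFC -0.52 to -0.42, adjusted p 0.057 to 0.12).

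Lmo4 (ENSMUSG00000028266; chromosome 3, 144188530 to 144205220, - strand, 6 merged exons), a LIM-only adaptor, measured 113, 118, 98.5 and 104 CPM in control input and 114, 110, 122 and 83.6 CPM in control IP. The DTR libraries held 123, 107, 109 and 76.5 CPM in the input and 107, 100, 115 and 103 CPM in the IP. All 4 groups overlapped. The 95% intervals of its LFC were -0.29 to 0.26 for damage in the IP, -0.35 to 0.20 for damage in the input, -0.27 to 0.27 for control IP over input and -0.21 to 0.33 for DTR IP over input.

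Eya1 (ENSMUSG00000025932; chromosome 1, 14168954 to 14310235, - strand, 18 merged exons), a coactivator needed for early otic development, measured 316, 357, 354 and 405 CPM in control input and 340, 429, 390 and 294 CPM in control IP. After damage it measured 270, 338, 351 and 345 CPM in the input and 350, 457, 304 and 286 CPM in the IP. The 4 groups overlapped, and no contrast was called. The 95% interval of the LFC was -0.34 to 0.27 for damage in the IP and -0.43 to 0.18 for damage in the input.

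Eya4 (ENSMUSG00000010461; chromosome 10, 23102963 to 23350786, - strand, 26 merged exons), its paralogue, behind a form of human deafness, measured 34.2, 38.9, 37.5 and 40.8 CPM in control input and 23.3, 28.8, 23.8 and 17.5 CPM in control IP. In DTR cochleae it measured 28.8, 31.7, 21.6 and 26.0 CPM in the input and 19.6, 18.8, 13.5 and 14.5 CPM in the IP. It was lower in the IP than in the input of all 8 pools, with ratios of 0.428 to 0.738 in control and 0.557 to 0.680 in DTR pools. The LFC of IP over input was -0.72 ± 0.14 in control and -0.73 ± 0.14 in DTR cochleae (adjusted p = 0.00052 in both). Of 10 HC markers, 8 were lower in the IP of control and 7 in that of DTR cochleae, and Atoh1 was higher in both (LFC 0.86 and 1.09). Their sum was 187 to 270 CPM in control IP against 581 to 737 CPM in control input and 262 to 317 CPM in DTR IP against 549 to 671 CPM in DTR input, and their part in the values of Eya4 was not tested. The fall of Eya4 with damage was modest, with an LFC of -0.51 ± 0.14 in the IP (adjusted p = 0.019), where the ranges overlapped, and -0.50 ± 0.14 in the input (adjusted p = 0.025). The call in the IP was lost without control IP replicate 2 or 3 or DTR IP replicate 3 or 4 (LFC -0.49 to -0.43, adjusted p 0.0502 to 0.064). That in the input was lost without control input replicate 2, 3 or 4 or DTR input replicate 3 or 4 (LFC -0.50 to -0.42, adjusted p 0.057 to 0.088).

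**Figure D3:**
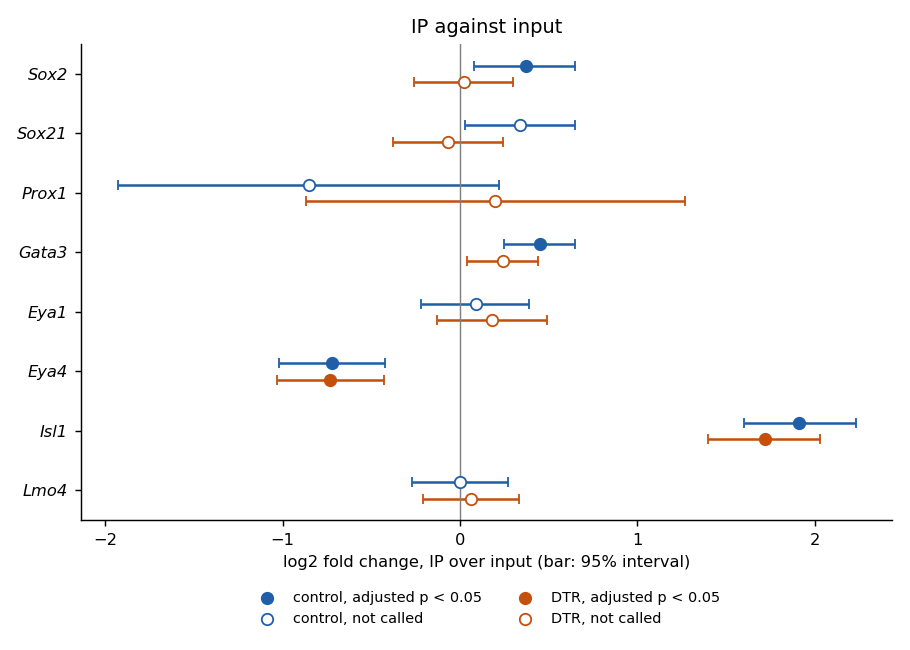
LFC of IP over input (x axis, log2) for the 8 tested members in control and in DTR cochleae, with 95% intervals; filled points have an adjusted p under 0.05. Isl1 stands at 1.91 and 1.72, Eya4 at -0.72 and -0.73, and the wide intervals are those of Prox1.

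Prox1 (ENSMUSG00000010175; chromosome 1, 190118035 to 190170714, - strand, 6 merged exons), a homeodomain factor of pillar and Deiters cells and of neurons, had the largest SE of the 8 tested members. It measured 39.2, 34.2, 28.1 and 24.1 CPM in control input and 26.6, 27.3, 14.2 and 7.55 CPM in control IP. The DTR libraries held 14.7, 8.18, 2.91 and 4.17 CPM in the input and 14.2, 15.6, 5.70 and 1.87 CPM in the IP. Input libraries of DTR were all below those of control, whereas the IP libraries overlapped. In all 4 groups replicates 1 and 2 were above replicates 3 and 4. The LFC with damage was -2.27 ± 0.51 in the input (adjusted p = 0.0052) and -1.22 ± 0.51 in the IP (adjusted p = 0.12). Blocked by replicate number across genotypes, the fall in the IP was called (adjusted p = 0.0037). Blocked by pool, a lower level in the control IP than in the control input was called (LFC -0.85, adjusted p = 0.011, against 0.20 without the block). Without DTR IP replicate 2 the fall in the IP passed narrowly (LFC -1.58, adjusted p = 0.04999), and without DTR IP replicate 4 its LFC was -0.67.

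Markers of neurons varied in the same replicates. The 6 markers Tubb3, Snap25, Nefl, Nefm, Nefh and Stmn2 summed to 846, 763, 238 and 197 CPM in control input and 324, 333, 143 and 116 CPM in control IP. They summed to 715, 425, 218 and 81.0 CPM in DTR input and 331, 191, 128 and 46.8 CPM in DTR IP. Replicates 1 and 2 were thus above replicates 3 and 4 in each group, and 0 of the 6 neuron markers were called with damage in either sample type. Their median LFC with damage was -0.65 in the input and -0.18 in the IP. Blocked by replicate number, 4 of 6 were lower with damage in the input and 2 of 6 in the IP, and within numbers the sum was lower in DTR than in control in all 4 inputs and 3 of 4 IPs. Within replicates 1 and 2 the LFC of Prox1 with damage was -1.74 in the input (adjusted p = 0.0013) and -0.82 in the IP (adjusted p = 0.052), and within replicates 3 and 4 it was -2.82 in the input (adjusted p = 0.005) and -1.63 in the IP (adjusted p = 0.053). The part of neurons in the level of Prox1 was not tested. Sox2 did not split in this way. Its replicates 3 and 4 were above replicates 1 and 2 in control input, control IP and DTR input. In DTR IP its replicate 4 was the highest and its replicate 3 the lowest. Prox1os, on the opposite strand, shares 133 exon bases with Prox1 and did not exceed 2.28 CPM.

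**Figure D4:**
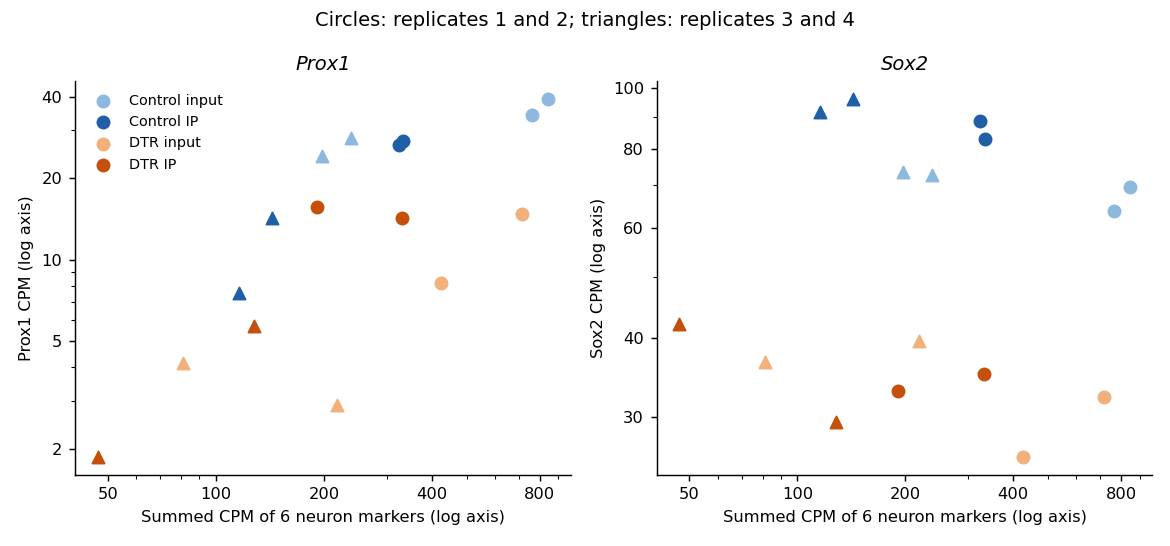
CPM of Prox1 (left) and Sox2 (right) against the summed CPM of 6 neuron markers in each of the 16 libraries, all on log axes, with circles for replicates 1 and 2 and triangles for replicates 3 and 4. In each colour the Prox1 circles lie above the triangles and to their right, and the DTR input points lie below the control input points; the Sox2 points separate by genotype.

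Pax2 (ENSMUSG00000004231; chromosome 19, 44756045 to 44837871, + strand, 11 merged exons), an early otic factor, was near the limit of detection. It measured 0.548, 0.282, 0.169 and 0.259 CPM in control input and 1.17, 0.233, 0.294 and 0.360 CPM in control IP. The DTR input libraries were at 0.0886, 0.275, 0.179 and 0.0305 CPM and the DTR IP libraries at 0.418, 0.0356, 0 and 0.296 CPM, so the groups overlapped. The highest value rested on 39 reads and the library at 0 on 0 reads, which allows up to 0.0994 CPM (3 reads, counting error only). Pax2 did not reach 0.5 CPM in all 4 libraries of any group, so it was not tested. In a limma fit without that filter its damage LFC was -0.67 in the IP (unadjusted p = 0.018, adjusted p = 0.14). In the input it was -0.44 (unadjusted p = 0.098, adjusted p = 0.43). No difference was called, and whether Pax2 changed was not resolved at these levels.

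Levels were compared between genes as CPM per kb of merged exon. The study's methods describe counting in coding regions, so levels per kb of coding sequence are also given, and the order differs between these scales. In control input the order was Gata3 (133 ± 8.08 CPM per kb, mean ± SD, n = 4), Isl1 (69.1 ± 10.1), Eya1 (45.9 ± 4.64), Sox2 (34.0 ± 2.14), Lmo4 (30.7 ± 2.49), Sox21 (18.5 ± 2.15), Eya4 (4.02 ± 0.297), Prox1 (3.74 ± 0.796) and Pax2 (0.0581 ± 0.0302). The ranges of Sox2 and Lmo4 overlapped, as did those of Eya4 and Prox1, and the other neighbours did not. In control IP, Isl1 was first (252 ± 50.8 CPM per kb) and Gata3 second (171 ± 16.5 CPM per kb), with the overlaps now between Eya1 and Sox2, Lmo4 and Sox21, and Eya4 and Prox1. In DTR cochleae Sox2 stood behind Lmo4, at 16.4 ± 2.91 CPM per kb in the input and 17.0 ± 2.62 in the IP, with a range that overlapped that of Sox21 in both. In DTR input the ranges of Isl1, Eya1 and Lmo4 also overlapped in turn, and in DTR IP those of Eya4 and Prox1. The highest of the 8 tested members exceeded the lowest by 35.5-fold in control input, 112-fold in control IP, 94.7-fold in DTR input and 128-fold in DTR IP. Per kb of coding sequence instead, Lmo4 moved up, to 213 CPM per kb and above Eya1 in control input, since only 508 of its 3530 exon bases are coding. On that scale Sox2 stood behind both Lmo4 and Sox21 in all 4 groups, in control input at 73.0 against 213 and 85.1 CPM per kb.

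**Figure D5:**
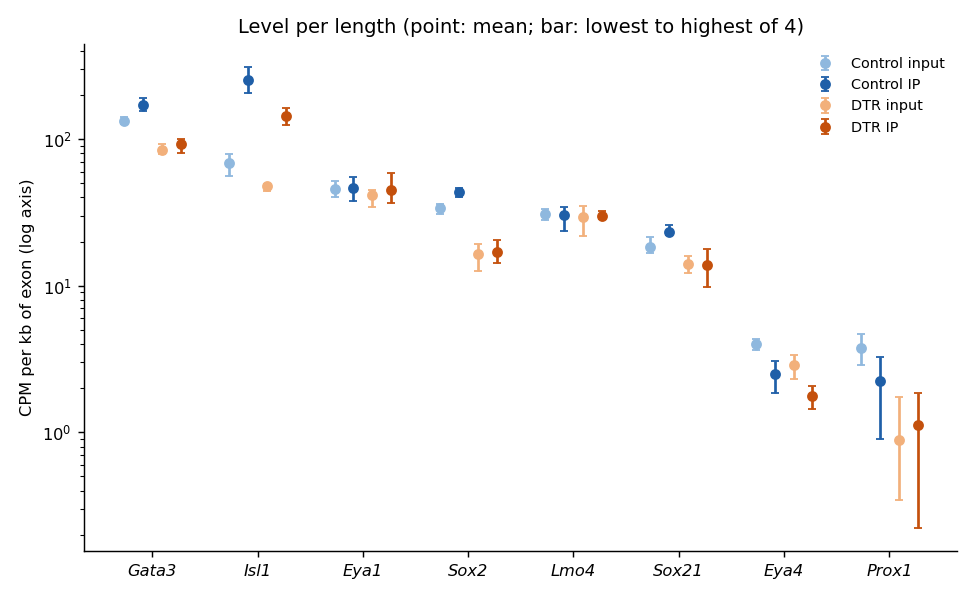
CPM per kb of merged exon (y axis, log scale) of the 8 tested members in the 4 groups; points are means and bars run from the lowest to the highest of 4 libraries. Gata3 and Isl1 are highest in every group, Eya4 and Prox1 lowest, and Sox2 in DTR lies clearly below Sox2 in control.

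Other genes of the same networks were counted from lists chosen by function. Of 8 further genes of the network around Pax2, Eya1 and Dach1, 7 were tested. In control cochleae 3 were higher in the IP and 1 lower, and in DTR cochleae 2 and 1. Eya3, a paralogue of Eya1 (LFC 1.01 and 1.15), was higher, and Dach1, a repressor of the network (LFC -0.94 and -0.98), was lower. Six2 was higher in the IP of both genotypes (LFC 0.67 and 0.42, adjusted p = 1.4e-05 and 0.0016), and Six4 in the control IP (LFC 0.71, adjusted p = 0.0071), with an LFC of 0.16 in the DTR IP (adjusted p = 0.56). With damage 1 of 7 was lower in the IP (Six2, LFC -0.33, adjusted p = 0.020) and 1 of 7 was higher in the input (Six4, LFC 0.85, adjusted p = 0.0057). The median LFC of the 7 with damage was 0.14 in the IP and 0.04 in the input.

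Of 6 other SoxB and SoxE genes, 4 were tested, and none was called with damage in either sample type. Sox9, a SoxE factor of otic progenitors and SCs, averaged 293 ± 52.1 CPM (SD, n = 4) in the IP of control and 318 ± 40.4 CPM in that of DTR cochleae. Sox10, a factor of otic epithelium and glia, averaged 220 ± 43.8 and 165 ± 17.4 CPM there. Sox3, a SoxB1 gene like Sox2, was near 1 CPM and lower in the IP in both genotypes (LFC -0.85 and -0.62).

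Of 13 LIM, GATA and Prox relatives and partners, 12 were tested. With damage 4 fell and 2 rose in the IP, and 3 fell and 0 rose in the input. Those that rose in the IP were Ldb2 (LFC 0.42, adjusted p = 0.042) and Ssbp3 (LFC 0.31, adjusted p = 0.046). Lmo3, a paralogue of Lmo4, had the largest fall of these, from 49.1 ± 5.60 to 10.9 ± 1.25 CPM in the input (LFC -2.16, adjusted p = 2.1e-08) and from 27.7 ± 7.60 to 9.74 ± 0.764 CPM in the IP (LFC -1.44, adjusted p = 4e-06). Lmo1, another paralogue, fell by 0.76 on the log2 scale in the IP (adjusted p = 0.00078) and by 0.52 in the input (adjusted p = 0.019). Zfpm1, a cofactor of GATA proteins, fell by 0.67 in the IP (adjusted p = 0.0064) and had an LFC of -0.39 in the input (adjusted p = 0.14). Isl2, the paralogue of Isl1, fell by 0.47 in the IP (adjusted p = 0.024) and by 0.45 in the input (adjusted p = 0.039). Ldb2, a cofactor that binds LIM domains, was higher in the IP than in the input of both genotypes (LFC 0.99 and 1.02), and Zfpm2 was lower in both (LFC -0.93 and -0.57, adjusted p = 0.0021 and 0.046). Lmo3 was lower in the control IP (LFC -0.86), with an LFC of -0.15 in the DTR IP (adjusted p = 0.51).

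For each tested member, the 2 tested genes with the most similar profile were taken by Pearson r of log2 normalised CPM over the 16 libraries, as a description, since libraries of a group share their genotype and sample type. Sox2 was nearest to Ackr4 (r = 0.978), a chemokine scavenger receptor, and Hes5 (r = 0.974), a Notch target with means of 10.9 CPM in the control and 0.962 CPM in the DTR IP. Sox21 was nearest to Gsn (r = 0.958), which encodes gelsolin, and Dkk3 (r = 0.948). Gata3 was nearest to Igfbp3 (r = 0.979), an insulin-like growth factor binding protein, and Hey1 (r = 0.974), another Notch target. Isl1 was nearest to Ccdc160 (r = 0.980) and Socs6 (r = 0.980), and Eya4 to Eps8 (r = 0.970), an actin regulator of HC stereocilia, and Herc3 (r = 0.970). Prox1 was nearest to Ppp2r2b (r = 0.895) and D430041D05Rik (r = 0.893), Eya1 to Zfp397 (r = 0.833) and Atf2 (r = 0.824), and Lmo4 to Laptm4a (r = 0.885) and Emc2 (r = 0.860). Among the members themselves, r was highest between Sox2 and Gata3 (0.93), Sox21 and Gata3 (0.86) and Sox2 and Sox21 (0.82), and lowest between Eya4 and Isl1 (-0.52).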

How the data were processed

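The authors deposited CPM per gene for each of 16 libraries (SMART-Seq v4), each scaled to its reads counted on genes with HTSeq after alignment to GRCm38. The study's methods describe the counted reads as those in coding regions. Whether reads in untranslated parts of exons were left out was not checked. The methods name HISAT2 as the aligner and the submitters' processing notes TopHat; the annotation release and strand setting are not given in the sources used here. Whole reads recovered from the CPM steps (100% of values above 0 whole within 0.01) gave depths of 28089836 to 41966310 reads; a count of 3 reads is the floor, for counting error only.

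CPM were quantile normalised, genes were kept that reached 0.5 CPM in each of the 4 libraries of 1 or more groups (16994, with 8 of the 9 members), and log2(CPM + 0.5) was fitted in limma 3.58.1 (R 4.3.3; trend, all 16 libraries, two-sided, Benjamini-Hochberg adjusted over all tested genes). An LFC is on this scale and understates changes of low genes. edgeR 4.0.16 (quasi-likelihood) and DESeq2 1.42.0 were run on the recovered reads as alternatives. Replicates are pools of cochleae. Libraries with the same number deviated together (r of at least 0.288 for every number in the 4 pairs of groups compared, mean 0.357 to 0.407). Between different numbers the mean r was -0.135 to -0.119, and the highest was 0.290. The input and IP of a number are from 1 homogenate. What control and DTR pools of a number share is not stated in the sources used here. A fit with a replicate block is given where it changes a call. For damage the block was the replicate number across genotypes. For IP against input and for the interaction it was the pool. On simulated counts for DTR IP against control IP (17016 genes run), 73.2% of 97 genes changed by 1 on the log2 scale were recovered and 3.09% of those changed by 0.5, with 1.33% of calls false. Only these few genes were changed there, with the same dispersion for all genes. In the data 2674 genes were called for this comparison, so the recovery in the data can differ.

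Gene positions and lengths came from GENCODE M21 (GRCm38) and promoters from RefSeq. The members, gene lists and marker lists were chosen with earlier results of these data known. All members were named in every comparison, with Lgr5 and Slc1a3, genes overlapping a member, up to 3 called genes per list and comparison with the largest |LFC|, and the 2 genes most like each member. Some further called genes of the lists were also named. A gene of 1 list is not reported here, and the counts of that list leave it out.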

Additional observations from a re-analysis of the deposited data

Results flagged for a closer look

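Among 36 sets of 4 libraries (9 members in 4 groups), 2 held a library far from the other 3, with a gap to its neighbour beyond Dixon's 95% critical value; chance gives about 1 in 20. Eya1 in DTR input replicate 1 was at 270 CPM, below 338, 345 and 351 CPM in the other replicates. Pax2 in control IP replicate 1 was at 1.17 CPM, above 0.233, 0.294 and 0.360 CPM, and rested on 39 reads. Eya1 was not called in any comparison of the report, though it was for DTR IP against input, which uses that library, after a correction for gene length and GC content with the replicate block (LFC 0.30, adjusted p = 0.039). Pax2 was not tested. No member was called for a difference in damage response between IP and input; with the replicate block the unadjusted p was 0.0095 for Prox1 and 0.019 for Sox21 (adjusted p = 0.31 and 0.40).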

How the results depend on the processing

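Of the 936 values that a processing alternative gave for a member and a comparison, 56 had the other sign, each for a contrast that was not called with either setting. Calls moved with the study's criteria, which left 0 members for IP against input in control and 0 in DTR cochleae, 1 for damage in the IP and 2 in the input. Under the replicate block the counts were 6 for control IP against input (4 without it), 2 for DTR IP against input, 6 for damage in the IP (5 without it), 5 in the input and 0 for the interaction; Sox21 and Prox1 were the members whose calls changed. The block also raised the share of all genes called, from 39.9% to 48.8% for control IP against input, from 7.30% to 11.1% for genes lower with damage in the IP and from 5.21% to 7.99% in the input. The interaction was called for 40 of all genes with the block, 49 with DESeq2 and 0 with edgeR, against 2 by limma without it, where 870 had an unadjusted p under 0.05. Leaving out 1 library gave 3 to 5 members called for control IP against input, 2 to 3 for DTR IP against input, 4 to 6 for damage in the IP, 3 to 5 for damage in the input and 0 for the interaction. The cause of these changes was not tested, and the shares of all genes called with 1 library left out are not given here.

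Fits of replicates 1 and 2 alone and of replicates 3 and 4 alone were chosen after seeing the data. Replicates 1 and 2 alone gave 3 members for damage in the IP and 3 in the input. Replicates 3 and 4 alone gave 2 for control IP against input, 3 for damage in the IP and 2 in the input. These fits have fewer libraries. Their shares of all genes called are not given here, so the members cannot be set beside all genes. A correction for gene length and GC content with the replicate block, also added, gave 4 members for DTR IP against input (adding Gata3, LFC 0.27, and Eya1, LFC 0.30) and called Sox21 for damage in the input (adjusted p = 0.035). For this correction, too, the share of all genes called is not given. Gata3 was called without the block too (adjusted p = 0.0078). The correction ended the call of Sox2 for control IP against input (LFC 0.26, adjusted p = 0.067 without and 0.06 with the block). No filter ended the same call (adjusted p = 0.071) and that of Isl1 for damage in the input (adjusted p = 0.088). Without quantile normalisation Eya4 lost both damage calls (adjusted p = 0.053 in the IP and 0.056 in the input), and with the compared groups alone that in the IP (adjusted p = 0.069).

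Values with the other sign were small. With the length and GC correction, with or without the block, the LFC was -0.05 for Sox2 in DTR IP against input, -0.03 for Lmo4 in control IP against input and 0.03 for Lmo4 with damage in the IP. For Lmo4 in control IP against input it was -0.02 without quantile normalisation, -0.03 after centring on library medians and -0.03 with replicates 1 and 2 alone. With those replicates it was 0.14 for Sox21 and -0.15 for Lmo4 in DTR IP against input, 0.08 for Eya1 with damage in the IP and -0.12 for the interaction of Lmo4, which was -0.02 with edgeR. With replicates 3 and 4 alone it was -0.12 for Sox2, -0.02 for Prox1 and -0.14 for Eya1 in DTR IP against input, -0.08 for Eya1 in control IP against input, 0.10 for Lmo4 with damage in the IP, and -0.05 for Eya1 and 0.11 for Eya4 in the interaction, which for Eya4 was 0.02 without quantile normalisation.

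With 1 library left out, the LFC in DTR IP against input ran from -0.09 to 0.12 for Sox2, -0.20 to 0.08 for Sox21, -0.16 to 0.76 for Prox1 and -0.08 to 0.14 for Lmo4. In control IP against input it ran from -0.005 to 0.18 for Eya1 and -0.06 to 0.10 for Lmo4. For damage in the IP it ran from -0.16 to 0.06 for Eya1 and -0.11 to 0.05 for Lmo4, and in the input from -0.16 to 0.07 for Lmo4. In the interaction it ran from -0.04 to 0.19 for Eya1, -0.10 to 0.08 for Eya4 and -0.08 to 0.14 for Lmo4. With 4 pools a group, changes of 0.5 on the log2 scale were rarely recovered in simulated counts, in which few genes were changed. In the data Eya4 was called at LFCs of -0.51 and -0.50 with damage and Isl1 at -0.50. Differences of that size can be missed here, and the share missed was not measured.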
